A study of Mus musculus with 5 samples.

Results

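Osteopontin (OPN), the product of Spp1, and 6 genes for its receptors or receptor subunits were followed through the cells of the mouse kidney. The members were taken by symbol from the gene lists of the libraries: Spp1, Cd44, Itgav, Itgb1, Itgb5, Itga9 and Itga4, which are 7 of 32285 genes, and each was listed in all 5 libraries. Kidneys of wild-type male mice of the C57BL/6 strain, 8 to 10 weeks of age, were digested and sequenced cell by cell in 1 library of vehicle-treated control (CON, week 0), 2 libraries of acute kidney injury (AKI, week 2) and 2 libraries of chronic kidney disease (CKD, week 4). The injured mice received aristolochic acid I (AAI), a plant nephrotoxin, at 3 mg/kg into the peritoneum every 3 days, and the CKD kidneys were taken after 2 further weeks without it. All groups shared strain, sex and genotype. The labels do not say whether the 2 libraries of a group came from separate animals, so p-values measure the spread between libraries, which may be technical.

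OPN is a secreted, phosphorylated and acidic glycoprotein of bone matrix, urine and inflamed tissue. In the healthy kidney it is known from the distal nephron, above all the thick ascending limb (TAL) of the loop of Henle, where it restrains the growth of calcium crystals, and its synthesis spreads along the nephron in many forms of injury. It binds cells through integrins, which are pairs of an alpha and a beta chain (αvβ5, αvβ1, α9β1 and α4β1 among them), and through CD44, the hyaluronan receptor of leukocytes and injured epithelium.

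The integrin-binding stretch of Spp1 lies in exon 6 of 7, within the coding sequence, at chr5:104587332-104587391 on the plus strand of GRCm39. It is shown because the integrins followed here, though not CD44, meet the ligand there. In the first line the capitals mark codons 144 to 146 of 294, for arginine, glycine and aspartate, the site read by the αv integrins. In the second line they mark codons 147 to 153, the stretch used by α9β1 and α4β1, which thrombin cleavage exposes.
RGD codons: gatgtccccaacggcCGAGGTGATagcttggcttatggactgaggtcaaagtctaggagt
Codons after RGD: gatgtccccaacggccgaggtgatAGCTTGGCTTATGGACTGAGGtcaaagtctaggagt
Cleavage, phosphorylation and other changes of the protein leave no trace in transcript counts.

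The receptor genes lie apart in the same build. Cd44 spans chr2:102641486-102732010 on the minus strand, and Itgav (αv) chr2:83554403-83637260 and Itga4 (α4) chr2:79085660-79163467 on the plus strand. Itgb1 (β1) spans chr8:129411876-129460618, Itgb5 (β5) chr16:33649988-33771137 and Itga9 (α9) chr9:118435722-118730072, all on the plus strand.

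Of 72896 barcodes 53718 were kept as cells, 8496 to 16330 per library with medians of 2868.5 to 5538 UMIs (unique molecular identifiers, 1 per captured transcript) and 1188 to 1689 genes. They fell into 59 clusters and 19 classes named from marker genes, 10 of them epithelial. A name means that a cluster resembled the class, as in TAL-like, and is written without the ending. No cluster was named for the S3 part of the proximal tubule, for injured tubule or for podocytes, and 3380 cells stayed without a name. Umod, the defining gene of the TAL, stood at 170, 131, 95.01, 120 and 110 UMIs per 10000 in the TAL of CON, AKI 1, AKI 2, CKD 1 and CKD 2. In this unit a gene's UMIs are set against all UMIs of the class in that library, and libraries are given in this order throughout. CKD 1 stood apart: its largest cluster of proximal tubule (64.5% of those cells), TAL (75.2%) and principal cells (69.0%) was not the largest in any other library. The control shared 112 barcodes with CKD 2, and 85 of those held over 20 times more UMIs in CKD 2. They included 31 of the control's 35 osteoclast-like macrophages but only 4 of its 393 TAL cells, and leaving them out changed none of the calls below.

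Spp1 was higher in the AAI libraries than in the control in each of the 9 tubular and parietal classes with enough cells. Among these classes, taken whole, the TAL held the highest level in 4 of 4 AAI libraries. In the TAL it stood at 31.5 UMIs per 10000 in CON, 345 and 464 in AKI, and 210 and 415 in CKD. The means were 404.5 ± 84.5 (SD, n = 2) in AKI and 312 ± 146 (SD, n = 2) in CKD. Both AAI groups lay above the single control without overlap, whereas CKD 1 was below and CKD 2 within the range of the AKI libraries. The exact Poisson interval of the TAL value in CKD 2 was 412 to 419, so counting error was small beside the spread of libraries. In sums over cells, fewer cells with the transcript and less transcript per cell cannot be told apart, and single cells are therefore described further on.

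In the proximal tubule (PT, segments S1 and S2), which reabsorbs most of the filtrate and takes up AAI, Spp1 stood at 9.04 in CON, 168 and 260 in AKI, and 105 and 87.1 in CKD. Both CKD values were below both AKI values and above the control. The distal convoluted tubule (DCT), the thiazide-sensitive segment after the TAL, had 12.6 in CON, 221 and 216 in AKI, and 148 and 187 in CKD. From 78.1% to 88.8% of DCT cells lay in a shallow cluster (0.339 of the library median in UMIs) that scored alike for DCT and connecting tubule (4.08 and 4.07), with Spp1 at 14.7, 113, 109, 89.7 and 62.4. The deeper DCT cluster, which also held Pvalb among its leading genes, had 11.6 in CON, 262 and 277 in AKI and 189 in CKD 1. Both clusters were above the control in each AAI library. In principal cells (PC) of the collecting duct, which take up water and sodium, Spp1 stood at 4.07 in CON, 85.4 and 65.6 in AKI, and 105 and 67.4 in CKD. The AKI and CKD values of principal cells overlapped.

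Type B intercalated cells (IC-B), which secrete bicarbonate, had 28.7 UMIs per 10000 in CON, 127 and 156 in AKI, and 137 and 166 in CKD. One of their clusters scored nearly alike for type B and type A (4.5 and 4.12). It held 24.4% of IC-B in CON, 64.5% and 32.9% in AKI, and 65.7% and 50% in CKD. Another, with 15.3% of IC-B in CKD 1, scored 3.26 and 3.22. The thin limb of the loop had 30.2 in CON, 109 and 166 in AKI, and 150 and 95.8 in CKD. In both classes every AAI library was above the control, and the AKI and CKD libraries overlapped. The thin limb mixed unlike clusters. The cluster with 69.8% of its cells in CON held 17.2%, 22.1% and 16.5% in AKI 1, AKI 2 and CKD 1. Spp1 there was 40.5 in CON, 308 and 391 in AKI and 345 in CKD 1, the last above that library's TAL. The other cluster had 14.6 in CON, 82.9 and 131 in AKI, and 57.7 and 73.6 in CKD. Type A intercalated cells, which secrete acid, had 5.69 in CON, 95.9 and 147 in AKI and 87.1 in CKD 1. In CKD 1 56.9% of them lay in a cluster whose leading genes included Ccl17, Il1b and Mgl2, genes of myeloid cells, and the cluster of all other libraries had 70.2 there. The connecting tubule had 35.3 in CON, 97.9 and 121 in AKI and 103 in CKD 1, and the parietal epithelium of Bowman's capsule 34.9, 240, 205 and 143 in the same libraries. In these 3 classes CKD 2 held under 20 cells and was left out.

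**Figure D1:**
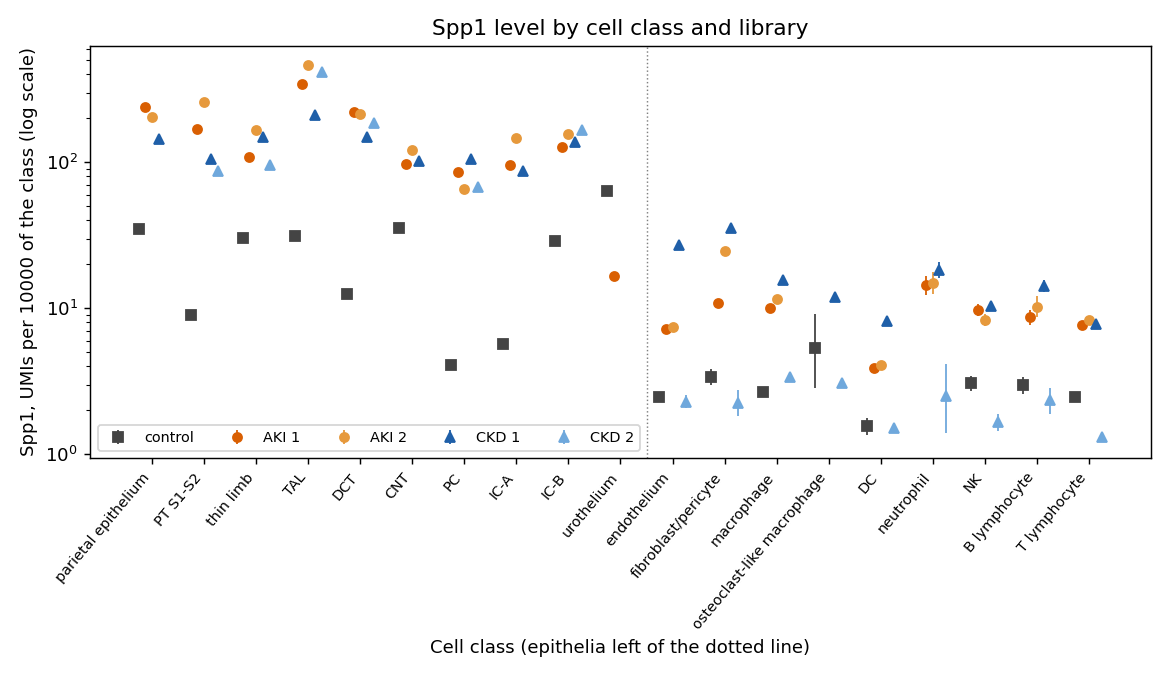
Spp1 level by cell class and library, in UMIs per 10000 UMIs of the class on a log axis; each point is 1 library of CON, AKI or CKD with at least 20 cells of the class. The TAL points reach 464 in AKI and 415 in CKD against 31.5 in CON, and macrophages stay between 2.68 and 15.6.

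Across the libraries the geometric mean of Spp1 ran from 213 in the TAL through 125 in parietal epithelium, 111 in DCT, 105 in IC-B, 95.2 in thin limb, 81.6 in PT, 81.0 in connecting tubule and 51.4 in type A intercalated cells to 43.8 in principal cells. The next class in the order was neutrophils at 9.96, then fibroblasts and pericytes at 9.37, macrophages at 6.95, B lymphocytes at 6.15, endothelium at 6.07, NK cells at 5.31, T lymphocytes at 4.38 and dendritic cells at 3.14. Urothelium (63.2 in CON, 16.7 in AKI 1) and osteoclast-like macrophages (5.31 in CON, 12.01 and 3.09 in CKD) had enough cells in 2 and 3 libraries and were left out of this order. The step from principal cells to neutrophils was present in 4 of 4 libraries (mean log2 ratio 2.99 ± 1.18, SD). Within the tubule most neighbours in this order changed places between libraries, and TAL exceeded parietal epithelium in 3 of 4 and DCT exceeded IC-B in 4 of 5. The TAL exceeded the PT in 5 of 5 libraries, with a mean log2 ratio of 1.39 ± 0.61 (SD, n = 5), or 2.61-fold. This ratio was widest in CKD 2 (2.25) and in CON (1.80) and narrowest in AKI 2 (0.83).

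The design asks how far Spp1 moved between the stages, and sums per library and class were tested across all genes with edgeR's quasi-likelihood test (Benjamini-Hochberg adjustment within a class). Against the control, 14 of 81 tests of the 7 genes passed an adjusted p of 0.05 in AKI (17.3%) and 15 of 81 in CKD (18.5%). Over all genes and classes tested, 4.85% and 5.87% passed in the same comparisons. Both comparisons use the same control library, which is assumed to vary like the AKI and CKD libraries. Spp1 was called higher in 5 of 13 classes in AKI and in 5 of 13 in CKD, against 3.22% and 4.08% of all tests called higher, and its fold change was above 0 in 13 of 13 classes in both. At 15% mitochondrial UMIs it was called in 4 and 3 of 12 classes, and with doublets kept in 6 and 4 of 14. Without AKI 1 or AKI 2 calls were lost as well, as given below. The share of all genes called is given for the main fit only, so counts under other settings do not single out Spp1. The counts were 10 and 10 with a replicate block or without the low-count filter, 11 and 6 without CKD 1 (with 1 class called lower in CKD) and 12 and 12 without CKD 2.

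In AKI against CON, Spp1 rose in the PT by a log2 fold change of 4.51 (SE 0.46, adjusted p = 0.0141), in PC by 4.30 (SE 0.42, adjusted p = 0.0107) and in the DCT by 3.99 (SE 0.42, adjusted p = 5.45e-07). It rose in the TAL by 3.62 (SE 0.65, adjusted p = 0.0116) and in IC-B by 2.18 (SE 0.24, adjusted p = 0.0151). The segment with the highest level, the TAL, thus had a smaller fold than the PT, PC or DCT, which started lower in the control. Whether the fold differed between segments was not tested. The thin limb did not pass at a log2 fold change of 2.17 (SE 0.42, adjusted p = 0.0692). The tests in the TAL rested on both AKI libraries, since the adjusted p was 0.213 without AKI 1 and 0.265 without AKI 2, and likewise in IC-B (0.203 and 0.293), although the fold changes stayed between 2.05 and 3.82.

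In CKD against CON, Spp1 rose by 4.55 in PC (SE 0.43, adjusted p = 0.0276), 3.68 in the DCT (SE 0.41, adjusted p = 2.66e-06), 3.38 in the PT (SE 0.43, adjusted p = 0.0363), 3.29 in the TAL (SE 0.64, adjusted p = 0.0238) and 2.37 in IC-B (SE 0.24, adjusted p = 0.0102), all on the log2 scale. The thin limb again did not pass (2.14, adjusted p = 0.076). Without AKI 1 or AKI 2 the calls in the TAL and IC-B were lost. Over all alternatives the fold changes there stayed from 2.85 to 3.66 in the TAL and from 2.27 to 3.00 in IC-B. The calls in the PT and DCT held in each alternative that could test them, with a highest adjusted p of 0.0429 and 0.00118. The DCT could not be tested at 15% mitochondrial UMIs or with doublets kept, where CKD 2 held 9 and 10 DCT cells.

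Between CKD and AKI the background of calls was 0.805% of all tests, and 1 of 84 tests of the 7 genes passed (1.19%), which was not Spp1. By edgeR Spp1 was called in 0 of 14 classes and passed an unadjusted p of 0.05 in 1, the PT, where it was lower in CKD by 1.13 on the log2 scale (fold change -1.13, SE 0.29, adjusted p = 0.272). DESeq2 called 1 class, lower in CKD. With edgeR and a replicate block 2 classes were called lower and without the low-count filter 1, and without CKD 1 6 were called lower, whereas without CKD 2 4 were called higher and 3 lower. In the TAL the difference was -0.33 (SE 0.43), so changes of either sign lay within the spread of the libraries.

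**Figure D2:**
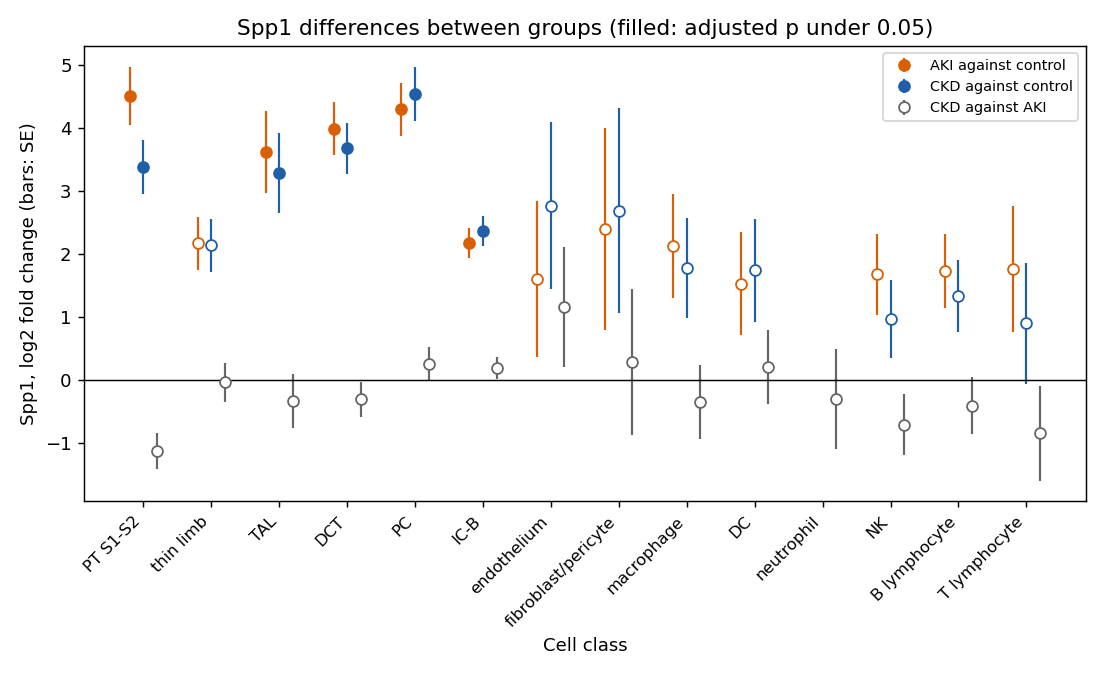
Log2 fold change of Spp1 by cell class for AKI against CON, CKD against CON and CKD against AKI, with bars of 1 SE from edgeR and filled points for adjusted p under 0.05. In PT, PC, DCT, TAL and IC-B both comparisons with CON are filled and lie between 2.18 and 4.55, and no point of CKD against AKI is filled.

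RNA released from broken cells enters every droplet, and T lymphocytes served as the reference for that level. Spp1 in T lymphocytes was 2.48 UMIs per 10000 in CON, 7.69 and 8.34 in AKI, and 7.75 and 1.30 in CKD. TAL cells had 12.7, 44.9, 55.7, 27.1 and 319 times the T lymphocyte level of their own library, and PT cells 3.65, 21.9, 31.2, 13.5 and 67.0 times. In macrophages, which make OPN in many inflamed tissues, Spp1 stood at 2.68 in CON, 9.96 and 11.6 in AKI, and 15.6 and 3.37 in CKD. That was 1.08, 1.30, 1.39, 2.01 and 2.59 times the T lymphocyte level, above it in 5 of 5 libraries (mean log2 ratio 0.67 ± 0.51, SD) and close to it in the control. Macrophage Spp1 did not pass in AKI (log2 fold change 2.13, SE 0.82, adjusted p = 0.141) or CKD (1.78, adjusted p = 0.175), and T lymphocytes had 1.76 (adjusted p = 0.329) in AKI. The T lymphocyte level was not a floor, since dendritic cells had 0.628, 0.508, 0.488, 1.05 and 1.17 times it. Depth differed too: median UMIs were 3141.5, 9390, 9168, 2437 and 8731 in macrophages and 3320.5, 3722, 3713, 3517 and 5584 in T lymphocytes. The part of depth in these ratios was not tested.

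Single cells were compared at equal depth by thinning each cell of at least 1000 UMIs to 1000 UMIs. Cells with fewer UMIs were left out of these shares. Cells above the 99th percentile of T lymphocytes in the same library, which was 2, 4, 5, 8 and 2 UMIs, were counted. In the TAL 48.7% of cells passed in CON, 94.2% and 98.1% in AKI, and 75.6% and 88.9% in CKD. The median TAL cell went from 2 thinned Spp1 UMIs in CON to 27 and 34 in AKI and 15 and 21 in CKD. The higher level was thus spread over most of the TAL cells deep enough to be thinned. In the PT 6.71% passed in CON, 62.5% and 79.9% in AKI, and 28.3% and 41.1% in CKD. The exact 95% intervals of the PT shares in CON (5.12% to 8.61%) and in CKD 1 (26.7% to 30.0%) did not meet, although the CKD 1 threshold was the highest. These intervals cover counting error only.

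The share in principal cells rose from 2.38% in CON to 61.7% and 47.8% in AKI and 48.4% and 73.3% in CKD. In the DCT it was 16.5%, 59.0%, 63.9%, 44.5% and 60%, and in IC-B 44.2%, 76.9%, 57.1%, 48.2% and 77.1%. DCT cells were shallow, with medians of 1242, 1271, 1470, 2214 and 1472.5 UMIs, so their shares describe only the deeper cells. In CON the connecting tubule (56.9%) and parietal epithelium (56.2%) had shares above those of the TAL and IC-B, and the thin limb 29.2%. IC-B of CKD 1 was barely above its control. Macrophages passed in 1.23% of cells in CON, 5.07% and 3.87% in AKI, and 2.88% and 2.68% in CKD, against 0.29% to 0.92% of T lymphocytes. The share of cells with any Spp1 UMI is no guide here, since before thinning 54.3% to 96.1% of T lymphocytes had 1.

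**Figure D3:**
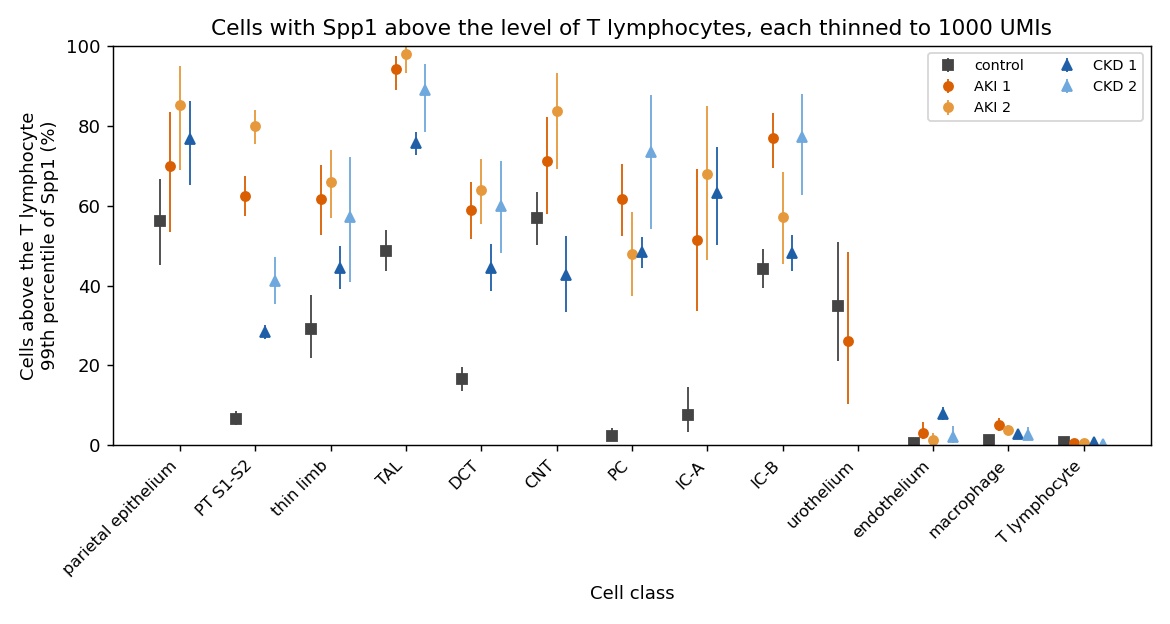
Percent of cells with more Spp1 UMIs than the 99th percentile of T lymphocytes of the same library, by class and library. Each cell of at least 1000 UMIs was thinned to 1000, and shallower cells were left out. Bars are exact 95% binomial intervals. The TAL lies at 48.7% in CON and between 75.6% and 98.1% in the AAI libraries, while macrophages stay between 1.23% and 5.07%.

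The kidney's whole pool of Spp1 transcripts shifted between segments as well, within the limits of what the digest released. The TAL gave 16.5% of all Spp1 UMIs in CON, 28.7% and 22.8% in AKI, and 20.6% and 32.9% in CKD, from 0.751% to 5.40% of the cells. The PT gave 5.86% in CON, 21.8% and 36.2% in AKI, and 31.8% and 18.2% in CKD. IC-B was the largest single source in CON at 28.7% and gave 6.37%, 5.22%, 9.72% and 14.8% in the AAI libraries, although its own level rose. Macrophages gave 0.89% to 3.23% in every library, AAI or control. Osteoclast-like macrophages, counted apart, gave 2.28% and 1.90% in CKD, where the other macrophages gave 2.82% and 1.24%.

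PT cells were also split by injury marker. Cells with a UMI of Havcr1, which encodes the injury marker KIM-1, had more Spp1 than PT cells without it in 4 of 4 AAI libraries: 277 against 151 UMIs per 10000 in AKI 1, 346 against 233 in AKI 2, 231 against 97.5 in CKD 1 and 128 against 83.6 in CKD 2. The Havcr1 group was small (24, 58, 63 and 11 cells) and deeper, with median UMIs of 27935.5 against 4473.5 in AKI 1, and the part of depth, or of free Havcr1 RNA, in the difference was not tested. PT cells without Havcr1 were still far above the control's 8.94. The control had 1 PT cell with Havcr1. The thin limb of CKD 1 went the other way, with 81.8 in cells with Havcr1 and 158 in those without.

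By cluster, the PT cluster that was largest in AKI (43.6% and 62.0% of PT cells) had Spp1 at 14.3 in CON, 188 and 277 in AKI, and 139 and 118 in CKD. The PT cluster that was largest in CON and CKD 2 had 8.22, 56.1, 104, 31.0 and 14.9. Both had more in AKI than in CKD, and the first kept a higher level in CKD than the second. The cluster that held most PT cells of CKD 1 had 75.4 there. In the TAL cluster that held 83.0% to 95.7% of TAL cells outside CKD 1, Spp1 was 31.2, 344, 465, 235 and 435, close to the class values. The TAL cluster of CKD 1 had 177 in CKD 1 and 50.6 in CON.

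Among the receptors, Cd44 was higher in macrophages and dendritic cells of every AAI library than in the control. Its level in macrophages was 0.831 UMIs per 10000 in CON, 2.17 and 2.08 in AKI, and 2.81 and 3.39 in CKD, so that control, AKI and CKD did not overlap. Macrophage Cd44 rose by a log2 fold change of 1.48 in AKI (SE 0.22, adjusted p = 0.0191) and 1.89 in CKD (SE 0.22, adjusted p = 0.00842), but the AKI call was lost without AKI 1 (1.41, adjusted p = 0.164) or AKI 2 (1.5, adjusted p = 0.145), as was the CKD call without AKI 1 (1.87, adjusted p = 0.0592). In dendritic cells Cd44 stood at 1.83 in CON, 2.56 and 2.49 in AKI, and 3.00 and 3.05 in CKD. The rise there was 0.64 in AKI (SE 0.14, adjusted p = 0.037) and 0.83 in CKD (SE 0.14, adjusted p = 0.0114). The smaller AKI call in dendritic cells was lost without AKI 1 (0.60, adjusted p = 0.133) or AKI 2 (0.68, adjusted p = 0.087).

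Neutrophils held the highest Cd44 level, 14.7 and 13.6 in AKI and 10.7 and 16.0 in CKD, and had too few control cells (19) for a test. T lymphocytes stayed between 1.47 and 1.65 in all 5 libraries. Osteoclast-like macrophages had 1.84 and 2.14 in CKD. After thinning, 7.63% of macrophages had a Cd44 UMI in CON, 19.0% and 15.2% in AKI, and 19.96% and 31.5% in CKD, against 14.2% to 17.1% of T lymphocytes. PT cells had 0.236%, 3.83%, 1.93%, 5.23% and 1.77%, and before thinning 0.336%, 11.7%, 10.2%, 13.04% and 10.5%. The macrophage level exceeded the PT level in 5 of 5 libraries (mean log2 ratio 4.62 ± 1.41, SD), by 6.84 in CON and by 3.07 to 4.76 in the AAI libraries.

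In tubular cells Cd44 was low and rose from near nothing. In the PT it was 0.00726 in CON, 0.152 and 0.0862 in AKI, and 0.334 and 0.125 in CKD, from 4, 87, 56, 405 and 38 UMIs. The cluster with 64.5% of the PT cells of CKD 1 had Cd44 at 0.729 there. In CKD 1 the PT clusters largest in AKI and in CON had 0.0739 and 0.229. Cd44 was called higher in the DCT in AKI (2.53, SE 0.66, adjusted p = 0.00962) and in CKD (3.44, SE 0.63, adjusted p = 0.000865) on 6 to 38 UMIs per library, and the first call was lost without AKI 1 (1.51, adjusted p = 0.469) and the second without CKD 1 (2.49, adjusted p = 0.0714). In the TAL the CKD call (2.00, SE 0.41, adjusted p = 0.029) was lost without AKI 2 (1.98, adjusted p = 0.0537), and without the clusters made mostly of 1 library, an alternative chosen after seeing the data, it was 1.01 (adjusted p = 0.234). In IC-B 2 UMIs in CON stood against 108 in CKD, a ratio of 112 with a 95% counting interval of 30.2 to 933, and that call was lost without AKI 1 (adjusted p = 0.0571) or AKI 2 (adjusted p = 0.057). The cells came from different clusters, 75.6% of IC-B in CON from one in which Cd44 was 0.0698 and 0.0945 in CKD, and 65.7% in CKD 1 from another in which it was 0.748 in CKD 1 and 0 in CON.

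T lymphocyte transcripts (Cd3e, Cd3g, Trbc2, Cd8a and Nkg7) moved in the same tubular sums. Their total in the PT was 0.0381 UMIs per 10000 in CON, 0.607 and 0.320 in AKI, and 4.17 and 0.847 in CKD, against 29.1 to 38.2 in T lymphocytes, with the highest value in CKD 1. The ratio of Cd44 to these transcripts was 0.0423 to 0.0528 in T lymphocytes, 0.0802 to 0.269 in the PT, 0.0769 to 0.326 in the DCT, 0.0906 to 0.648 in the TAL and 0.0154 to 0.34 in IC-B. In macrophages the total was 0.0848, 0.435, 0.386, 3.52 and 0.838 and the ratio 0.799 to 9.79. The part of T lymphocyte RNA in the Cd44 values was not tested.

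**Figure D4:**
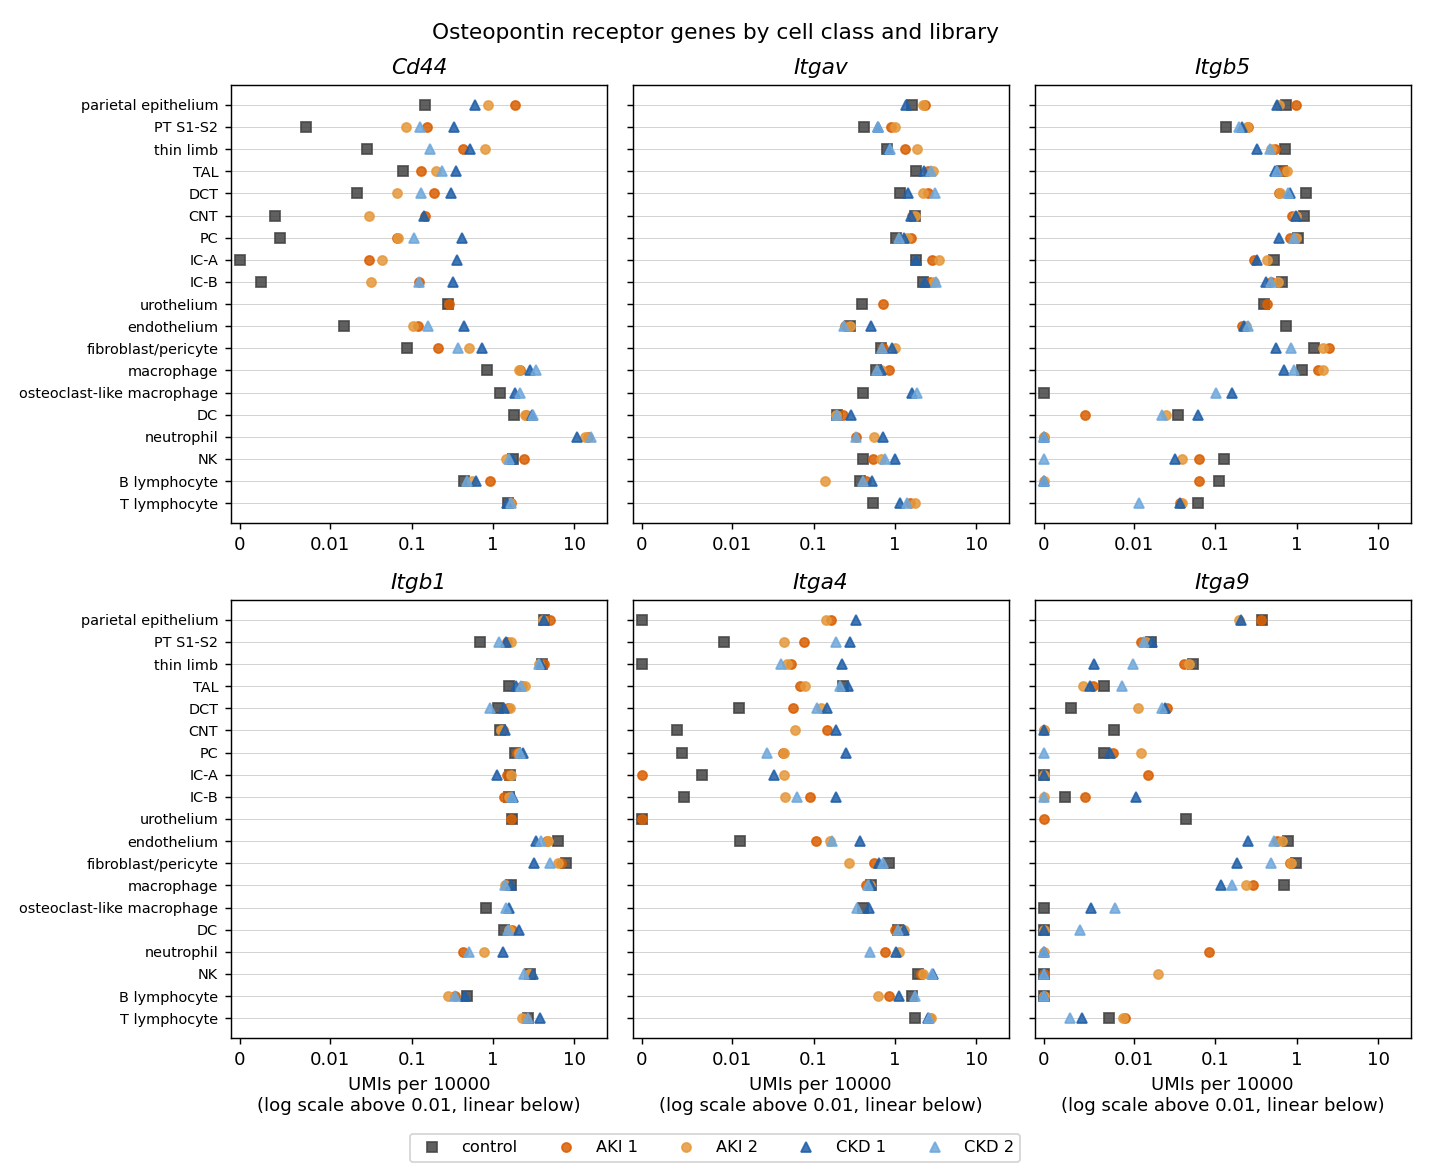
Levels of the 6 receptor genes by cell class and library in UMIs per 10000, 1 panel a gene, on axes that are logarithmic above 0.01 and linear below; each point is 1 library of CON, AKI or CKD. By geometric mean over libraries Cd44 and Itga4 are highest in leukocytes, Itgav in IC-B, and Itgb1, Itgb5 and Itga9 in fibroblasts, though not in each library.

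Itgav, the α chain shared by the vitronectin-type receptors of OPN, was highest among whole classes, by geometric mean over libraries, in intercalated cells and the TAL. IC-B had 2.22 UMIs per 10000 in CON, 2.73 and 3.04 in AKI, and 2.37 and 3.18 in CKD, and the TAL 1.84, 2.55, 2.935, 2.27 and 2.74. IC-B exceeded the TAL in 5 of 5 libraries by a mean log2 ratio of 0.14. Type A intercalated cells had 1.83 in CON, 2.85 and 3.47 in AKI and 1.80 in CKD 1, above both in AKI. Osteoclast-like macrophages had 1.62 and 1.85 in CKD, and the other macrophages stayed between 0.580 and 0.842 over all libraries. In the DCT Itgav stood at 1.16 in CON, 2.56 and 2.24 in AKI, and 1.47 and 3.10 in CKD, and its AKI fold change of 0.92 did not pass (adjusted p = 0.0503). The T lymphocyte cluster led by Ikzf2, Foxp3 and Areg had 3.48, 6.35, 6.61, 5.02 and 4.89, above IC-B and the TAL in each library. It held 5.85%, 9.03%, 12.7%, 3.74% and 6.21% of T lymphocytes, and the part of such shares in the class values was not tested. The 1 class in which Itgav was called was T lymphocytes, with 0.537 in CON, 1.54 and 1.78 in AKI, and 1.15 and 1.39 in CKD (log2 1.69, SE 0.21, adjusted p = 0.027, and 1.32, SE 0.20, adjusted p = 0.0162). These calls were lost without AKI 1 (1.78, adjusted p = 0.193, and 1.31, adjusted p = 0.0752) and without AKI 2 (1.59, adjusted p = 0.231, and 1.31, adjusted p = 0.0767).

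Itgb1, the β chain that pairs with α4, α9 and αv, was called in no class by edgeR against CON or between CKD and AKI, with 2, 2 and 1 classes at an unadjusted p under 0.05. By geometric mean it was highest in fibroblasts and pericytes, at 7.96 in CON, 6.77 and 6.23 in AKI, and 3.17 and 5.04 in CKD, but in CKD 1 parietal epithelium (4.19), thin limb (3.92), T lymphocytes (3.80) and endothelium (3.39) were higher. In the PT it stood at 0.699 in CON, 1.48 and 1.66 in AKI, and 1.43 and 1.19 in CKD, every AAI library above the control, and the fold changes of 1.11 (adjusted p = 0.0744) and 0.89 (adjusted p = 0.136) did not pass.

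Itgb5, the β chain of αvβ5, differed by stage in macrophages. It stood at 1.17 in CON, 1.85 and 2.07 in AKI, and 0.690 and 0.913 in CKD. Both CKD values lay below the control and both AKI values above it, and the difference of CKD from AKI was -1.43 on the log2 scale (SE 0.19, adjusted p = 0.0427), the 1 call of the 7 genes between the stages. It was lost without AKI 1 (-1.49, adjusted p = 0.652) or AKI 2 (-1.33, adjusted p = 0.384). In the DCT Itgb5 was 1.31 in CON, 0.598 and 0.622 in AKI, and 0.835 and 0.786 in CKD, and the AKI value fell by 1.24 on the log2 scale (SE 0.24, adjusted p = 0.000961), a call lost without AKI 1 (-1.18, adjusted p = 0.0721).

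Itga9, whose product binds the stretch exposed by thrombin, was lower in macrophages of every AAI library. It stood at 0.703 in CON, 0.291 and 0.235 in AKI, and 0.118 and 0.162 in CKD, with no overlap of the 3 groups. It fell by 1.30 in AKI (SE 0.26, adjusted p = 0.0361) and by 2.36 in CKD (SE 0.27, adjusted p = 0.00842) on the log2 scale. The calls were lost without AKI 1 (-1.49, adjusted p = 0.186, and -2.36, adjusted p = 0.0535), and the first also without AKI 2 (-1.15, adjusted p = 0.234). Fibroblasts and pericytes had 0.981 in CON, 0.827 and 0.851 in AKI, and 0.185 and 0.481 in CKD, a class in which no gene was called in any of the comparisons with CON.

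Itga4, the α chain of the leukocyte receptor α4β1, was highest in T lymphocytes and NK cells. T lymphocytes had 1.74 in CON, 2.68 and 2.77 in AKI, and 2.57 and 2.63 in CKD, all AAI libraries above the control and close to each other. It rose there by 0.71 in AKI (SE 0.10, adjusted p = 0.0331) and 0.64 in CKD (SE 0.10, adjusted p = 0.017), and both calls were lost without AKI 1 (adjusted p = 0.233 and 0.0927) or AKI 2 (adjusted p = 0.261 and 0.093). Macrophages stayed between 0.439 and 0.506.

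In tubular cells Itga4 rested on few UMIs. The PT had 5, 44, 28, 344 and 58 UMIs (0.00907, 0.0770, 0.0431, 0.284 and 0.191 per 10000). Its CKD call of 4.69 (SE 0.61, adjusted p = 0.0363) held in all alternatives, at log2 fold changes of 2.56 to 4.97. In the cluster with 64.5% of the PT cells of CKD 1, Itga4 was 0.662 in CKD 1 and 0.608 in CKD 2. That cluster scored 2.85 for PT and 2.3 for osteoclast-like macrophages. The PT cluster largest in AKI had 0.0124 in CON and 0.0487 and 0.0946 in CKD, and the one largest in CON 0.0161, 0.0602 and 0.377. The DCT had 4, 9, 11, 18 and 5 UMIs and was called higher in AKI (2.56, SE 0.86, adjusted p = 0.0486) and CKD (3.32, SE 0.84, adjusted p = 0.0152), which was lost without AKI 1 (AKI 3.14, adjusted p = 0.0679), AKI 2 (AKI 2.01, adjusted p = 0.445) or CKD 1 (CKD 3.00, adjusted p = 0.0892). The TAL had 0.233 in CON, 0.0683 and 0.0784 in AKI, and 0.263 and 0.209 in CKD, and fell by 1.74 in AKI (SE 0.31, adjusted p = 0.0113), a call lost without AKI 1 (-1.63, adjusted p = 0.0895) or AKI 2 (-1.82, adjusted p = 0.0744). The ratio of Itga4 to the T lymphocyte transcripts was 0.0599 to 0.0739 in T lymphocytes, 0.0682 to 0.238 in the PT, and 1.93 in the TAL of CON but 0.0681 to 0.194 in the TAL of the AAI libraries, and the part of T lymphocyte RNA was not tested.

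Macrophages were not uniform, and 3 clusters, not all of those with at least 20 cells in 4 or more libraries, are described by their leading genes. The cluster led by C1qb, C1qa and Mmp13 held 67.2% of the control's macrophages and had Spp1 at 2.33 in CON, 11.99 and 16.4 in AKI, and 28.7 and 2.98 in CKD. The cluster led by Ccl8, Ccl7 and Ccl12, the largest in AKI, had less Spp1 than the other two (1.57, 4.31, 5.29, 6.18 and 1.61). The cluster led by Lyz2, Cxcl2 and Ccl6 had 14.9 and 15.2 in AKI and 7.97 and 4.76 in CKD. Against the T lymphocytes of the same library the C1qb cluster had 0.941, 1.56, 1.97, 3.71 and 2.29 times their level and the Ccl8 cluster 0.635, 0.56, 0.634, 0.798 and 1.24 times. The Ccl8 cluster was thus below the T lymphocyte level in 4 of 5 libraries, and the part of cell depth in this was not tested.

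Receptor levels differed between these clusters as well. Cd44 in the Lyz2 cluster was 3.00 and 2.75 in AKI and 4.42 and 5.32 in CKD, both CKD values above both AKI values. In the Lyz2 cluster Itgb5 went from 2.73 in both AKI libraries to 0.556 and 0.719 in CKD, whereas in the Ccl8 cluster it was 1.22 and 1.38 in AKI and 1.62 and 1.34 in CKD. Itga9 in the C1qb cluster was 0.754 in CON, 0.266 and 0.250 in AKI, and 0.0522 and 0.135 in CKD. In the Ccl8 cluster Itga9 was 1.12, 0.427, 0.368, 0.337 and 0.400, so the lower level in the AAI libraries was found within both clusters. The clusters themselves took different shares of each library (41.9% to 43.5% of macrophages for the Ccl8 cluster in AKI and 2.85% in CON), and values within clusters were described and not tested.

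**Figure D5:**
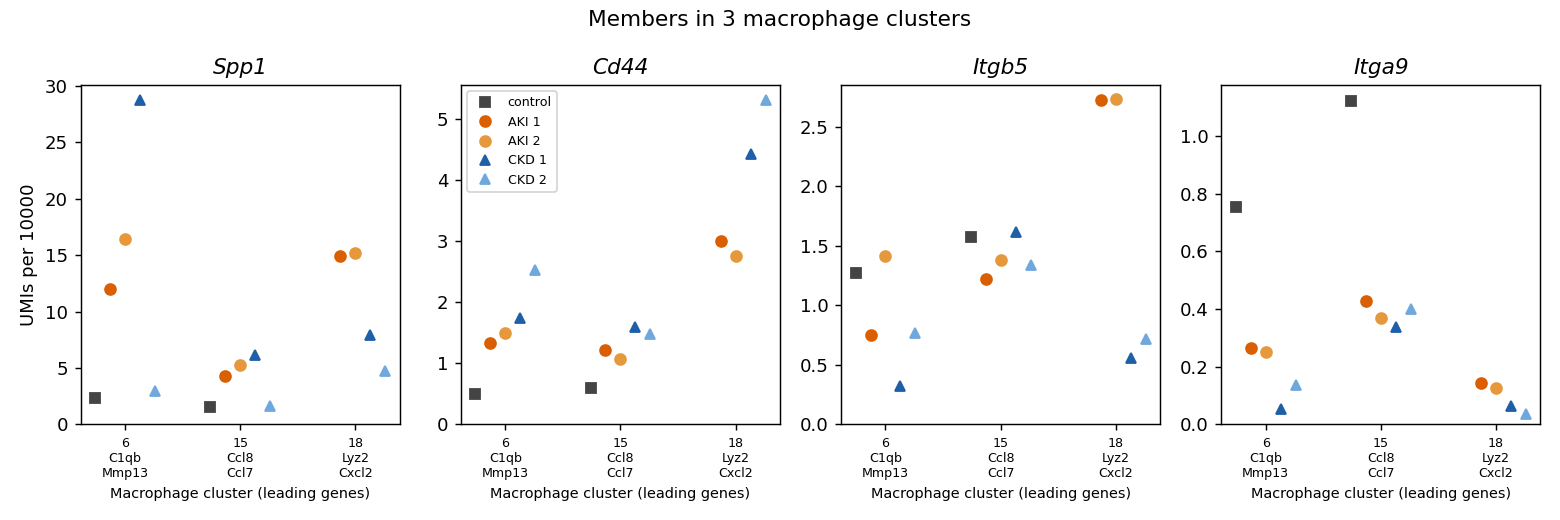
Levels of Spp1, Cd44, Itgb5 and Itga9 in UMIs per 10000 in 3 macrophage clusters, named by leading genes, with 1 point a library. Itgb5 in the Lyz2 cluster lies at 2.73 in AKI and at 0.556 and 0.719 in CKD, and Spp1 is lower in the Ccl8 cluster than in the other two.

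The genes around OPN were counted over the classes tested, on lists chosen with earlier results of these data known. Tubular injury genes were higher in 32 of 85 tests in AKI (37.6%) and 22 of 85 in CKD (25.9%) against CON, and lower in none. Their median log2 fold change in the TAL was 4.75 in AKI and 4.09 in CKD, where the median of all genes was -0.01 and 0.01. Lcn2 (lipocalin-2, an iron-siderophore binder and marker of tubular injury) stood in the TAL at 0.0875 in CON, 30.9 and 32.7 in AKI, and 16.1 and 28.5 in CKD (log2 8.44, adjusted p = 0.000416, and 7.97, adjusted p = 0.00133). Cdkn1a, the cell cycle inhibitor p21, went in the TAL from 0.0943 to 2.65 and 2.68 in AKI and 2.16 and 2.05 in CKD. Sox9, a transcription factor of repairing tubule, had 0.0944, 1.34, 0.971, 0.336 and 0.316 in the PT and was called in AKI (3.55, adjusted p = 0.013). In the TAL 7 of 7 injury genes tested were higher in AKI and 5 of 7 in CKD, and in the PT 4 of 8 and 1 of 8, in the same sums in which Spp1 rose.

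Enzymes that modify OPN were called higher in 6 and lower in 1 of 48 tests in AKI (14.6% called) and higher in 11 of 48 in CKD (22.9%). These included Mmp9 outside macrophages, lower in T lymphocytes in AKI and higher in dendritic cells, the DCT and the TAL in CKD. Mmp9 was also among the markers that named the osteoclast-like macrophages, and the part of their free RNA in such calls was not tested. Tgm2, the transglutaminase that cross-links OPN, rose in the TAL from 0.0157 in CON to 0.251 and 0.340 in AKI and 0.164 and 0.253 in CKD (4.12, adjusted p = 0.00173, and 3.64, adjusted p = 0.00723). In macrophages Tgm2 had 0.0565, 0.543, 0.593, 0.581 and 0.891 (3.45, adjusted p = 0.0161, and 3.68, adjusted p = 0.00866), and Fam20c, the kinase that phosphorylates secreted proteins such as OPN, 0.0601, 0.365, 0.375, 0.314 and 0.355 (2.74, adjusted p = 0.00854, and 2.45, adjusted p = 0.00839). Both enzymes were above the control in each AAI library. Mmp9, a gelatinase that cleaves OPN, had 0.0283, 0.158, 0.146, 0.978 and 0.449 in macrophages and was called in CKD (4.62, adjusted p = 0.0112). These macrophage calls were lost without AKI 1 (Tgm2 adjusted p = 0.116 in AKI and 0.0535 in CKD, Fam20c 0.0921 and 0.0544, Mmp9 0.0592) and, except for Tgm2 and Fam20c in CKD, without AKI 2 (Tgm2 0.103, Fam20c 0.0836, Mmp9 0.0516).

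Partner integrin chains were called in 7 of 77 tests in AKI (5 higher, 2 lower) and 8 of 77 in CKD (6 higher, 2 lower). Itgb8, an αv partner, rose in the TAL from 0.341 in CON to 0.8 and 0.958 in AKI and 0.903 and 0.872 in CKD (1.30, adjusted p = 0.0116, and 1.41, adjusted p = 0.0161), and its AKI call was lost without AKI 2 (1.17, adjusted p = 0.112). Itgb2, the leukocyte β2 chain, had 0.463, 1.26, 1.40, 1.13 and 1.21 in macrophages (1.65, adjusted p = 0.0128, and 1.32, adjusted p = 0.0114), calls lost without AKI 1 (adjusted p = 0.132 and 0.0727) or AKI 2 (0.12 and 0.0579). The CD44 and hyaluronan list had 8 of 74 and 9 of 74 higher, and the adhesion machinery inside the cell 7 of 116 higher in both. These shares, 6.03% to 12.2%, were nearer to the background than those of Spp1 or the injury genes.

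Other ligands of the same integrins were higher in 9 of 49 tests in AKI (18.4%) and 3 of 49 in CKD (6.12%, near the 5.87% of all tests). They were lower in CKD than in AKI in 2 of 50 (4%, against 0.805% of all tests). Vcam1, a counter-receptor of α4β1, had 0.151 in CON, 1.11 and 1.04 in AKI, and 0.139 and 0.162 in CKD in the PT, with both CKD values near the control (AKI against CON 2.78, adjusted p = 0.013, and CKD against AKI -2.82, adjusted p = 0.0217). In macrophages Fn1 (fibronectin) had 0.184, 2.49, 2.65, 0.568 and 0.836, higher than CON in AKI (3.93, adjusted p = 0.00668) and in CKD (1.92, adjusted p = 0.0181) and lower in CKD than in AKI (-2.01, adjusted p = 0.0367). All 3 Fn1 calls and the second Vcam1 call were lost without AKI 1 (Fn1 adjusted p = 0.0747, 0.0784 and 0.617, Vcam1 0.0603) or AKI 2 (Fn1 0.0638, 0.0634 and 0.35, Vcam1 0.29). Spp1 in the PT stayed above the control in both CKD libraries, whereas Vcam1 lay below it in CKD 1 and slightly above it in CKD 2.

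Between CKD and AKI 0.805% of all tests were called. Of the enzymes 4 of 50 tests passed (8%). The 3 that were higher in CKD were all of Mmp9, in dendritic cells, the DCT and T lymphocytes. Nearer to 0.805% were 1 of 88 tests of injury genes (1.14%) and 1 of 76 of the CD44 and hyaluronan list (1.32%). None passed among 78 tests of the partner chains and 118 of the adhesion machinery. No gene of the SIBLING family, the other bone matrix relatives of OPN, had enough counts for a test. Dissociation and stress genes were higher in 14 and lower in 11 of 104 tests in AKI (24% called). In CKD they were higher in 5 and lower in 18 of 104 (22.1% called). Over all tests 4.85% and 5.87% were called in these comparisons with CON. In the DCT 7 of 8 were higher in AKI and 5 of 8 in CKD, in macrophages 2 of 8 and 7 of 8 were lower, and their part in the values of the 7 genes was not tested. Tubule transcripts, listed as signs of free RNA in other cells, were lower in 13 of 104 (12.5%) and 8 of 104 tests (7.69%) and higher in none. Most of these calls were of Kap, and some were in the tubule itself. In AKI the log2 fold change of Kap was -9.30 in the TAL and -6.20 in the DCT. In the PT the gene called was Miox, at -2.49 in AKI and -1.89 in CKD. Neither these counts nor the sum given below therefore measures free RNA alone. T lymphocyte transcripts were higher in 7 of 63 (11.1%) and 17 of 63 (27%). In T lymphocytes the tubule transcripts summed to 31.4 UMIs per 10000 in CON, 12.6 and 11.8 in AKI, and 19.2 and 2.90 in CKD.

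Over the 91 sums by class and library, the genes whose log level was most like that of Spp1 among 11909 were Krt8 (Pearson r 0.839), Prr15l (0.828), 0610040J01Rik (0.827), Tuft1 (0.813) and Itgb6 (0.801). Krt8, a keratin of simple epithelia, stood in the DCT at 1.17 in CON, 12.4 and 13 in AKI, and 3.11 and 8.93 in CKD. For Cd44 the nearest were Itgb2 (0.932), Gpsm3 (0.914), Lcp1 (0.914), Selplg (0.908) and Rhog (0.896), mostly genes of leukocytes. The sums share libraries and depth, so these correlations are descriptions.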

How the data were processed

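Droplet 3′ single-cell libraries were mapped by the authors (Cell Ranger, STAR, GRCm39 per the labels, Cell Ranger 7.2.0 among the named tools). The matrices of the AKI and CKD libraries name another Cell Ranger release, and the control's gene list names another mouse build, but all 5 hold the same gene IDs. The deposited values are UMI counts per gene and barcode, unfiltered by the study's own cell filters. Barcodes over 30% mitochondrial UMIs or under 200 genes were dropped, 0.8% of cells per 1000 were removed as doublets by the share of simulated doublets among neighbours, and 3000 variable genes (without the 7 members), 40 components, a Harmony-type correction by library and Leiden clustering (leidenalg 0.10.2, resolution 1.5) gave the clusters. A class needed 3 detected markers and a score of 1.5, a rule settled after the clusters were seen. UMIs were summed per library and class (at least 20 cells) and tested with edgeR 4.0.16 (R 4.3.3; TMM, filterByExpr, quasi-likelihood, adjusted p under 0.05). The study's rank-sum test on cells was not used, since cells are not replicates. The scripts were tested on simulated data. Intervals cover counting error only.

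The members and gene lists were chosen with earlier results of these data known. List genes were named from the 4 with the smallest adjusted p per list, class and comparison, leaving out those with 3 or fewer control UMIs. Calls of Mmp9 outside macrophages are listed without values. Alternatives were DESeq2 1.42.0, RLE scaling, no low-count filter, a replicate block, leaving out each library, the AKI and CKD libraries alone, at most 15% mitochondrial UMIs, doublets kept, no library correction, no shared barcodes and, added after seeing the data, no clusters with over 80% of cells from 1 library. Likeness of genes was Pearson's r of log levels over sums, with 1000 UMIs needed in all. A further macrophage cluster is not reported here.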

Additional observations from a re-analysis of the deposited data

Results flagged for a closer look

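Spp1 in urothelium ran against the tubule: the control had 63.16 UMIs per 10000 and the highest AAI library 40.01, so every AAI library lay below the control. AKI 1 was the only AAI library with at least 20 urothelial cells (23 cells, 16.7 UMIs per 10000), and the difference was not tested.

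Itga4 moved in opposite directions between classes in AKI against the control: the log2 fold change was 2.56 in the DCT and 0.71 in T lymphocytes but -1.74 in the TAL. The difference between classes was not tested.

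Clusters without a name, used in no comparison, also held Spp1, at 7.566 UMIs per 10000 in the control, 52.35 and 69.21 in AKI, and 35.58 and 20.1 in CKD. All 4 AAI values were above the control.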

How the results depend on the processing

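The 3 level ratios kept their sign and moved by less than 1 SD under the alternatives run: TAL over PT for Spp1 between 1.17 and 1.76, macrophages over T lymphocytes for Spp1 between 0.44 and 0.81, and macrophages over PT for Cd44 between 3.58 and 5.12 (log2). The number of calls of the 7 genes depended more on the settings. The share of all genes called is not given for these settings, so whether other genes gained or lost calls alike cannot be read here. For AKI against CON, the 14 calls became 36 without the low-count filter and 23 without the clusters mostly of 1 library, an alternative chosen after seeing the data, and ranged from 4 to 44 when 1 library was left out. For CKD against CON, the 15 calls became 32 without the filter and ranged from 13 to 42. For CKD against AKI, the 1 call became 4 with DESeq2, 13 without the filter, 2 with doublets kept, 5 without library correction, 0 at 15% mitochondrial UMIs and 2 without the clusters mostly of 1 library, and ranged from 0 to 28. The cause was not tested. The largest counts came without CKD 1 or CKD 2 and the smallest without AKI 1, which kept 11 of the 30 calls, or AKI 2, which kept 14. RLE scaling kept 29 of 30 and DESeq2 23 of 30. DESeq2 lost, by adjusted p, Itga4 in the DCT in AKI (0.275) and CKD (0.156) and in the TAL (0.0934), Itgb5 in the DCT (0.0718), and Cd44 in the DCT (0.193) and dendritic cells (0.0578) in AKI and in the TAL in CKD (0.0577). Without library correction Itgav in T lymphocytes was 1.10 (adjusted p = 0.115) and 0.71 (adjusted p = 0.14) and Cd44 in the TAL 0.95 (adjusted p = 0.284). At 15% mitochondrial UMIs Cd44 in dendritic cells in CKD was 0.70 (adjusted p = 0.0738). No call changed direction. Spp1 in principal cells was lost at 15% mitochondrial UMIs (4.83, adjusted p = 0.198, and 5.16, adjusted p = 0.149), and its CKD call with doublets kept (4.23, adjusted p = 0.0502).

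The labels number the libraries of AKI and CKD alike, but with 2 pairs they share only a number. With a replicate block there were 29 calls for AKI against CON, 29 for CKD against CON and 8 for CKD against AKI, and 28 of the 30 calls held. The share of all genes called with the block is not given. The deviations of same-numbered libraries correlated by -0.1 to 0.28 across genes.

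Limits: there was 1 control library, CKD 1 clustered apart, CKD 2 held few cells of several segments, and 38.7% of control barcodes against 11.1% to 12.7% of the others exceeded 30% mitochondrial UMIs.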
